A study of Mus musculus with 20 samples.

Results

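The 10 genes described here, Gata4, Gata6, Afp, Amn, Ttr, Dab2, Foxa2, Hnf4a, Apoe and Apoa1, are classical markers of primitive endoderm and of the visceral endoderm that grows out of it. They were chosen by symbol, and every probe set annotated to 1 of these symbols was taken, which gave 29 of the 45101 probe sets on the array and 10 of the 18193 genes with a symbol. The study measured RNA of mouse cells on 20 Affymetrix arrays in 6 groups. Germline stem cells (GSC, 3 arrays) are unipotent cells of the sperm lineage from testes of OG2 mice, which carry a green fluorescent reporter driven by Oct4 (strain B6;CBA-Tg[Pou5f1-EGFP]2Mnn/J). They were kept on mitomycin-inactivated embryonic fibroblasts in StemPro-34 medium with GDNF, bFGF, EGF, LIF and beta-estradiol. Germline-derived pluripotent stem cells (gPS, 5 arrays) came from those GSC, plated at about 1000 cells per well on fibroblasts, by picking round colonies with bright reporter signal after 3 to 4 weeks and growing them under embryonic stem cell conditions. Embryonic stem cells (ESC, 3 arrays) were of the RW4 line, grown on fibroblast feeders with LIF. The ESC_like cells (3 arrays) were derived from testes of mice at postnatal days 0 to 2, came from another laboratory, and were also grown on feeders with LIF. Neural stem cells (NSC, 3 arrays) were derived from an ESC line with an Olig2 reporter, and embryonic fibroblasts (MEF, 3 arrays) from C3H embryos at day E12.5. The labels name no separate cultures or animals behind the arrays of a group, so the p-values reflect the spread between arrays alone, and that spread may be technical.

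Primitive endoderm is the layer that forms beside the epiblast in the blastocyst, where Gata6 and then Gata4 switch on under FGF signals while the neighbouring cells keep Nanog. Its visceral derivative surrounds the embryo before a placenta and liver exist, takes up maternal protein through the receptors cubilin and megalin, for which amnionless and Dab2 are partners, and secretes alpha-fetoprotein, transthyretin and apolipoproteins under the control of Hnf4a and Foxa2. The same secreted products are later made by the fetal liver, and several of the genes are also used elsewhere: Dab2 in fibroblasts and macrophages, Ttr in choroid plexus, and Apoe in macrophages, astrocytes and pluripotent cells.

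Upstream sequences are shown for the carrier protein genes Afp, Apoe and Apoa1, since these differed most in the arrays: Afp was high in GSC, Apoe was high in the pluripotent groups, and Apoa1 was flat. Each is the 250 bases before an annotated start, written 5′ to 3′ on the strand of the gene, from RefSeq on GRCm38.p6: Afp at chr5:90490464-90490713 on the plus strand, the most upstream of 3 Apoe starts at chr7:19699189-19699438 on the minus strand, and Apoa1 at chr9:46228380-46228629 on the plus strand. Capitals mark matches, on either strand, to the motifs searched.
Afp: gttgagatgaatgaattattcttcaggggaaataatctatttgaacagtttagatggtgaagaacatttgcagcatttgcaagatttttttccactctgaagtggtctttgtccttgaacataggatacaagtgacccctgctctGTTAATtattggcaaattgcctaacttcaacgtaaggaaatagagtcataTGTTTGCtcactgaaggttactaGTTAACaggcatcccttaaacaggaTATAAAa
Apoe: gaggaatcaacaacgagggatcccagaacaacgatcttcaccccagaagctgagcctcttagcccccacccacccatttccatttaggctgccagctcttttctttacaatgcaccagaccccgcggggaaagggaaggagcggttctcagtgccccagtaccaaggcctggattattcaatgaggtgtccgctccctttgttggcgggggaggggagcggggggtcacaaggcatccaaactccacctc
Apoa1: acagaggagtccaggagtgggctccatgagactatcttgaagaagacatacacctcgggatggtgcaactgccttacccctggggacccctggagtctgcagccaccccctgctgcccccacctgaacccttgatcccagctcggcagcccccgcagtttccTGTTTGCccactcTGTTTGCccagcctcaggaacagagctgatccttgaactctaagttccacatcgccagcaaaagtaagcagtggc

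The letters searched were TATAAA for the box that positions transcription starts, GTTAAT and GTTAAC for HNF1, TGTTTAC and TGTTTGC for FOXA factors, AGATAA and TGATAA for factors such as Gata4, and CAAAGTCCA for HNF4. The Afp window held GTTAAT beginning 105 bases before the start, TGTTTGC at 55, GTTAAC at 32 and TATAAA at 7, and none of these matches overlapped. Over 32851 mouse windows of the same length, 6.43% held GTTAAT, 4.3% TGTTTGC, 2.56% GTTAAC and 12.4% TATAAA. The Apoa1 window held TGTTTGC at 88 and at 75 bases before the start, and the Apoe window shown held no match. The windows of the other 2 Apoe starts, which are not printed, held TATAAA at 100 and at 96 bases before the start in 1 and GTTAAT at 172 in the other. The table of start regions had 13 starts for 7 of the 10 genes, and 9 of these 13 windows held at least 1 match. A match is a description of letters and says nothing about binding of a factor.

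All values below are RMA signals on the log2 scale, in which 1 unit is a 2-fold difference. Differences are taken between groups for the same probe set. Sums over a list, the top gene of a list and counts above the overall median set different probe sets side by side. Those are descriptions only. The median of all values in the table was 4.97. No array gave a detection call, so a value at or below that median is described only as low. A difference was called when its Benjamini-Hochberg adjusted p over all 18193 genes was under 0.05 in limma and it reached at least 2-fold, and a ± after a difference is the standard error of the limma fit. For a gene with several probe sets, the one with the highest mean over all arrays represented the gene. The arrays were of similar scale, with medians from 4.95 to 5.04 and correlations between arrays from 0.871 to 0.997. Of the marker lists of the labelled cells, 10 of 10 germ cell genes were above the overall median in GSC, 10 of 10 pluripotency genes in gPS, ESC and ESC_like, 11 of 11 measured fibroblast genes in MEF, and 8 of 9 neural genes in NSC, where Sox1 was not. Many of these genes were above it in other groups too. For fibroblast genes it was 10 of 11 in ESC_like, 9 in GSC and gPS, 8 in NSC and 2 in ESC. In the groups not named for them, it was 3 to 6 of 10 germ cell genes, 2 to 6 of 10 pluripotency genes and 4 to 6 of 9 neural genes. The array gPS 1 had the lowest mean correlation with its own group, 0.979. In GSC 1 the 3′ probe set of Actb, a sign of RNA quality, exceeded the 5′ one by 1.25, against 0.12 to 0.57 on the other arrays, and no member call was lost without that array. The labels put ESC_like in another laboratory and its arrays carry later sample numbers, so that origin and cell type cannot be told apart in its comparisons.

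The endoderm genes did not move as a group between these cells. Of their 29 probe sets, 10, of the 5 genes Afp, Amn, Dab2, Foxa2 and Apoe, had group means spanning at least 1 log2 unit, and 13 were at or below the median of all values on every array. Afp and Foxa2 were highest in GSC, Apoe in ESC and gPS, Dab2 in MEF, and Amn in gPS. The group means of Gata4, Ttr and Apoa1 spanned at most 0.52 in any probe set, and those of Hnf4a from 0.44 to 0.99 by probe set. Because Afp was chosen for its GSC pattern, its levels are described without a test and the counts are over the other 9 genes. Of 63 differences (9 genes in 7 comparisons), 10 were called in limma. By comparison, 4.49% to 23.4% of all genes were called.

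**Figure D1:**
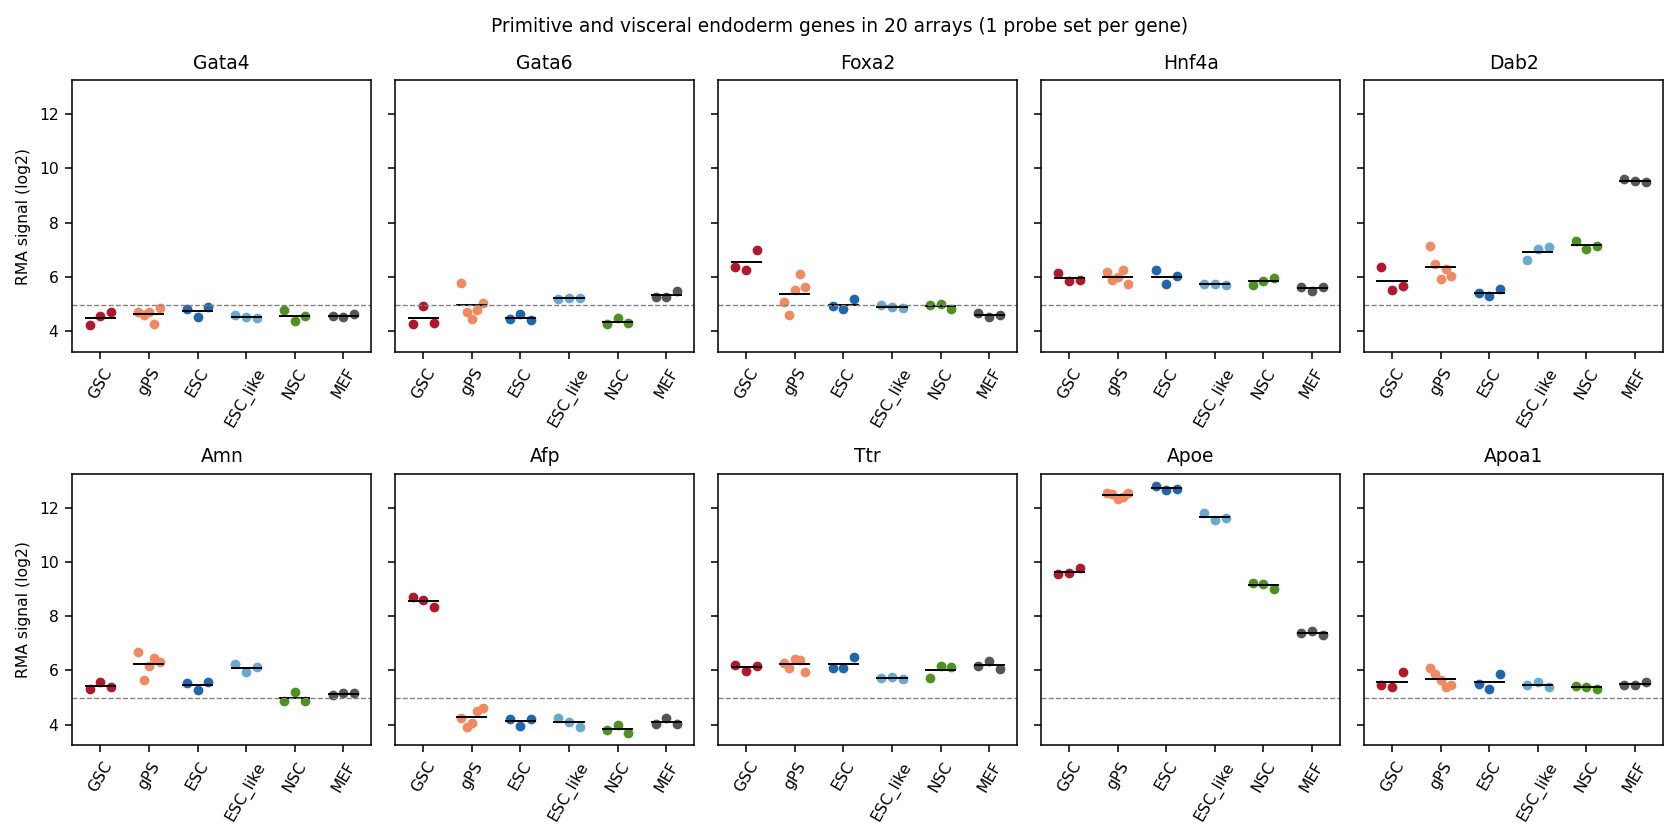
RMA signal (log2) of the 10 genes, 1 probe set each, on the 20 arrays by group; points are arrays, black bars are group means and the dashed line is the median of all values, 4.97. Afp stands at 8.32 to 8.70 in GSC only, Apoe runs from 12.65 to 12.79 in ESC down to 7.31 to 7.43 in MEF, and Gata4 lies below the dashed line on all 20 arrays.

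Among the transcription factors, Gata4, the zinc finger factor that drives the endoderm programme together with Gata6, was low everywhere. Its probe set 1418863_at read from 4.23 to 4.90 and 1418864_at from 3.46 to 4.31 over the 20 arrays, so that neither passed the overall median on any array. In 1418863_at the group means ran from 4.49 in GSC to 4.75 in ESC, and neighbouring groups in that order overlapped. None of its 7 differences was called, and the 95% intervals of all of them lay between -0.57 and 0.42.

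Gata6, the earliest marker of the lineage, read near the overall median and was not flat. In 1425464_at the ESC arrays read 4.46, 4.65 and 4.40, the GSC arrays 4.25, 4.92 and 4.31, and the NSC arrays 4.26, 4.47 and 4.30. The MEF arrays read 5.25, 5.25 and 5.48, the ESC_like arrays 5.19, 5.21 and 5.24, and the 5 gPS arrays 5.79, 4.69, 4.46, 4.77 and 5.04. MEF and ESC_like thus stood above ESC, GSC and NSC with no overlap, while the gPS arrays spread across both, with gPS 1 the highest array of all. MEF exceeded ESC by 0.82 ± 0.23 (adjusted p = 0.00525) and ESC_like exceeded ESC by 0.71 ± 0.23 (adjusted p = 0.0257, limma), both below 2-fold. The difference of gPS from ESC was 0.45 ± 0.21 (adjusted p = 0.125), and 0.24 without gPS 1. The other probe sets, 1425463_at and 1443081_at, gave smaller spans of group means, 0.78 and 0.36.

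Foxa2, a forkhead factor of visceral and later of gut endoderm, was highest in GSC. The GSC arrays read 6.37, 6.24 and 6.99, the gPS arrays 5.08, 4.58, 5.51, 6.12 and 5.62, and the ESC arrays 4.93, 4.81 and 5.18. The ESC_like arrays lay between 4.87 and 4.98, the NSC arrays between 4.83 and 4.99, and the MEF arrays between 4.53 and 4.67. All GSC arrays were above all others, and the gPS arrays ran from below the ESC arrays to just under the lowest GSC array. Foxa2 was higher in GSC than in ESC by 1.56 ± 0.26 (2.95-fold, adjusted p = 2.59e-05) and fell from GSC to gPS by 1.15 ± 0.23 (2.22-fold, adjusted p = 2.34e-04, limma). The second of these depends on single arrays: it was -0.92 without GSC 3 and -0.95 without gPS 2, below the 2-fold limit in both cases. The difference of gPS from ESC was 0.41 ± 0.23 and was not called. Foxa2 leads the summed level of the definitive endoderm list in GSC, where 3 of its 8 genes were above the overall median and Cxcr4, Sox17, Cer1, Gsc and Cdx2 were not. Of 11 Sertoli and Leydig cell genes, 5 were above the median in GSC, led by Wt1, which read 7.19, 6.19 and 5.87 there and 3.36 to 4.88 on the other arrays. The part of such cells in the Foxa2 signal was not tested.

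Hnf4a, the nuclear receptor that governs the secretory programme of visceral endoderm and liver, differed between its probe sets. The probe set 1450447_at, which represents the gene, read from 5.49 to 6.27 over all arrays, with group means from 5.58 in MEF to 6.01 in gPS. MEF was below ESC by 0.44 ± 0.14 (adjusted p = 0.0129 in limma), short of 2-fold. The other 3 probe sets of Hnf4a had their highest group mean in ESC. In 1427001_s_at the ESC arrays read 5.97, 6.03 and 6.46 and all other arrays 4.88 to 5.76, and in 1427000_at the ESC arrays read 3.70, 4.13 and 3.06 and the others 2.56 to 3.26. The first of these pairs of ranges did not overlap and the second did, through ESC 3.

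The uptake genes were the second kind of change. Dab2, a clathrin adaptor that links megalin and its relatives to endocytosis and is required in visceral endoderm, was highest in MEF and lowest in ESC. In 1420498_a_at the MEF arrays read 9.61, 9.52 and 9.48, the NSC arrays 7.34, 7.04 and 7.16, and the ESC_like arrays 6.64, 7.01 and 7.12. The gPS arrays read 7.14, 6.46, 5.94, 6.28 and 6.05, the GSC arrays 6.37, 5.51 and 5.66, and the ESC arrays 5.39, 5.29 and 5.57. MEF stood apart from every other array, NSC, ESC_like and gPS overlapped in that order, and all gPS arrays were above all ESC arrays. Relative to ESC, Dab2 was higher in MEF by 4.12 ± 0.24 (17.4-fold, adjusted p = 5.92e-12), in NSC by 1.76 ± 0.24 (3.39-fold, adjusted p = 2.77e-06) and in ESC_like by 1.50 ± 0.24 (2.84-fold, adjusted p = 7.08e-05, limma). The gPS arrays exceeded ESC by 0.96 ± 0.22 (1.94-fold, adjusted p = 0.00238), just under the fold limit, which the value passed without gPS 3 (1.07), without gPS 5 (1.04) or without ESC 3 (1.03). Without gPS 1, the highest gPS array, it was 0.76. They exceeded GSC by 0.52 ± 0.22 (adjusted p = 0.0491), and by 0.33 (adjusted p = 0.117) without gPS 1.

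All 4 probe sets of Dab2 had their highest group mean in MEF and their lowest in ESC. The MEF difference was 2.54 in 1423805_at, 2.35 in 1430604_a_at and 1.26 in 1429693_at. The NSC and ESC_like differences reached 2-fold in 1420498_a_at alone, and were 0.41 to 0.61 and 0.15 to 0.51 in the other 3. The gPS difference from ESC was 0.14, 0.11 and 0.18 in 1423805_at, 1429693_at and 1430604_a_at, with 95% intervals that included 0, so its size rests on 1420498_a_at. In these bulk samples, fewer cells of a type and less RNA per cell cannot be told apart. GSC, gPS, ESC and ESC_like were all grown on fibroblasts, so fibroblast genes are given beside Dab2. The median of the 11 measured fibroblast genes, as a percent of its MEF level, was 1.27 to 1.60 in ESC, 5.35 to 18.3 in gPS, 11.5 to 13.9 in GSC, 17.9 to 20.9 in ESC_like and 4.58 to 7.20 in NSC. The summed linear signal of these genes was 270 to 335 in ESC, 1194 to 3239 in gPS, 1555 to 1915 in GSC, 4781 to 6103 in ESC_like, 1010 to 1284 in NSC and 29000 to 30360 in MEF. In ESC 9 of the 11, among them Col1a1, Col3a1 and Thy1, were not above the overall median.

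Dab2 itself was at 5.27 to 6.36% of its MEF level in ESC, 8.21 to 19.0% in gPS, 6.14 to 11.1% in GSC, 13.3 to 18.6% in ESC_like and 17.7 to 21.7% in NSC. The shares of Dab2 and of the fibroblast genes were thus of similar size in ESC_like. In NSC and in ESC the Dab2 share was above the fibroblast share and in GSC it was below. The ESC readings of Dab2, 5.29 to 5.57, were near the overall median, and in its other probe sets all ESC arrays were below it. How far background signal sets the ESC share was not tested. Within gPS the order differed: gPS 1 had the highest Dab2, 19.0%, at a fibroblast share of 7.79%, and gPS 2 had the highest fibroblast share, 18.3%. Macrophage genes, another possible source of Dab2, had a summed linear signal of 1530 to 1738 in ESC_like and 540 to 564 in ESC. Lyz2 led the list in ESC_like with 60.1% of the sum. The sum was 2503 to 2657 in GSC, 383 to 901 in gPS, 287 to 322 in NSC and 900 to 1029 in MEF. The part of fibroblasts or macrophages in the Dab2 differences was not tested.

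**Figure D2:**
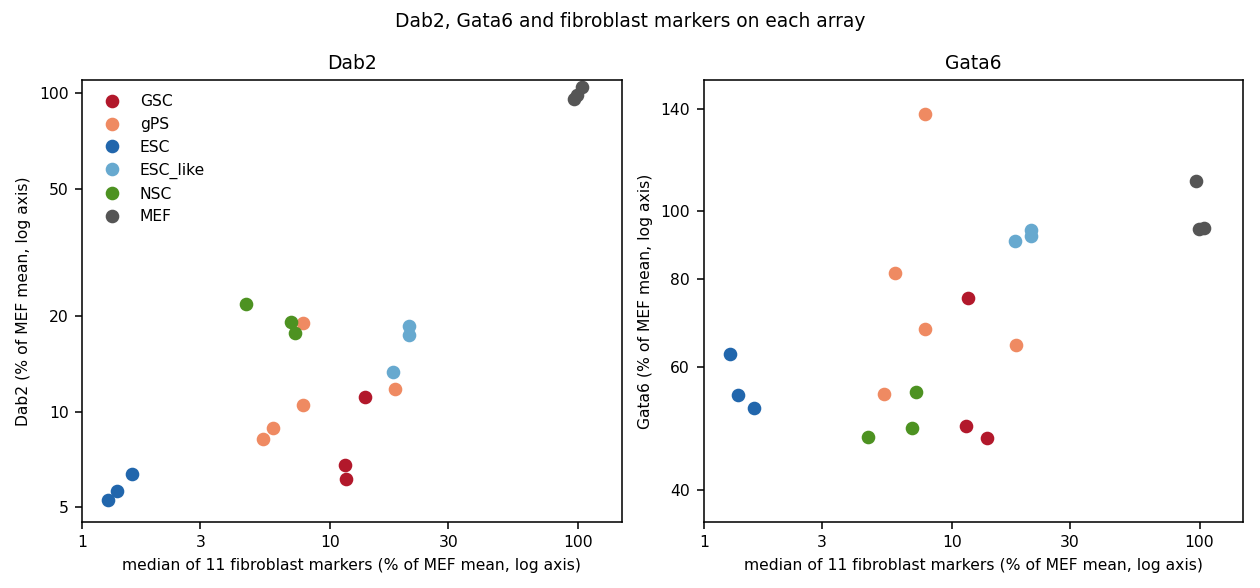
Dab2 (left) and Gata6 (right) on each array against the median of 11 fibroblast genes, both as percent of the MEF mean on log axes; points are arrays coloured by group. The ESC arrays lie at 1.27 to 1.60% of fibroblast level and the ESC_like arrays at 17.9 to 20.9%. NSC and ESC have a larger Dab2 share than fibroblast share, with the ESC signals of Dab2 near the median of all values. The array gPS 1 is the highest gPS array for both genes without being the highest for fibroblast genes.

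Amn, which encodes amnionless, the membrane anchor that carries cubilin to the surface of absorptive endoderm, had its highest group mean in gPS. The gPS arrays read 6.69, 5.63, 6.17, 6.46 and 6.31 and the ESC_like arrays 6.23, 5.92 and 6.14. The ESC arrays read 5.55, 5.27 and 5.57, the GSC arrays 5.31, 5.56 and 5.38, and the NSC and MEF arrays 4.85 to 5.19. All gPS arrays lay above all GSC and ESC arrays, though gPS 2 only narrowly. The difference was 0.83 ± 0.17 from GSC (1.78-fold, adjusted p = 2.38e-04) and 0.79 ± 0.17 from ESC (1.73-fold, adjusted p = 0.00135, limma), so neither reached 2-fold. ESC_like exceeded ESC by 0.64 ± 0.19 (adjusted p = 0.0138) and overlapped with gPS.

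The secreted carriers were the third kind, and held both extremes. Afp, the albumin-like carrier of fetal serum, stood out in GSC in 3 of its 5 probe sets. In 1416645_a_at the GSC arrays read 10.00 to 10.28 and the other 17 arrays 2.42 to 3.80, a mean difference of 7.22 on the log2 scale. The lower readings are far below the overall median, so no fold is given for them. In 1416646_at the GSC arrays read 8.70, 8.59 and 8.32 and the others 3.69 to 4.60, and in 1436879_x_at they read 8.28 to 8.37 against 2.64 to 3.73. The remaining 2 probe sets stayed low in GSC: 1436880_at read 3.74 to 4.08 there and 3.76 to 4.36 elsewhere, and 1436881_x_at read 3.10 to 3.58 there and 2.59 to 3.26 elsewhere. No gPS array kept the signal in the 3 responding probe sets, and in 1416646_at the gPS, ESC, ESC_like, NSC and MEF groups overlapped in every pair except NSC and MEF (3.69 to 3.99 and 4.02 to 4.25). In the other 2 responding probe sets MEF stood above all other arrays outside GSC, at 3.402 to 3.80 against at most 3.25 in 1416645_a_at and at 3.16 to 3.73 against at most 2.98 in 1436879_x_at.

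**Figure D3:**
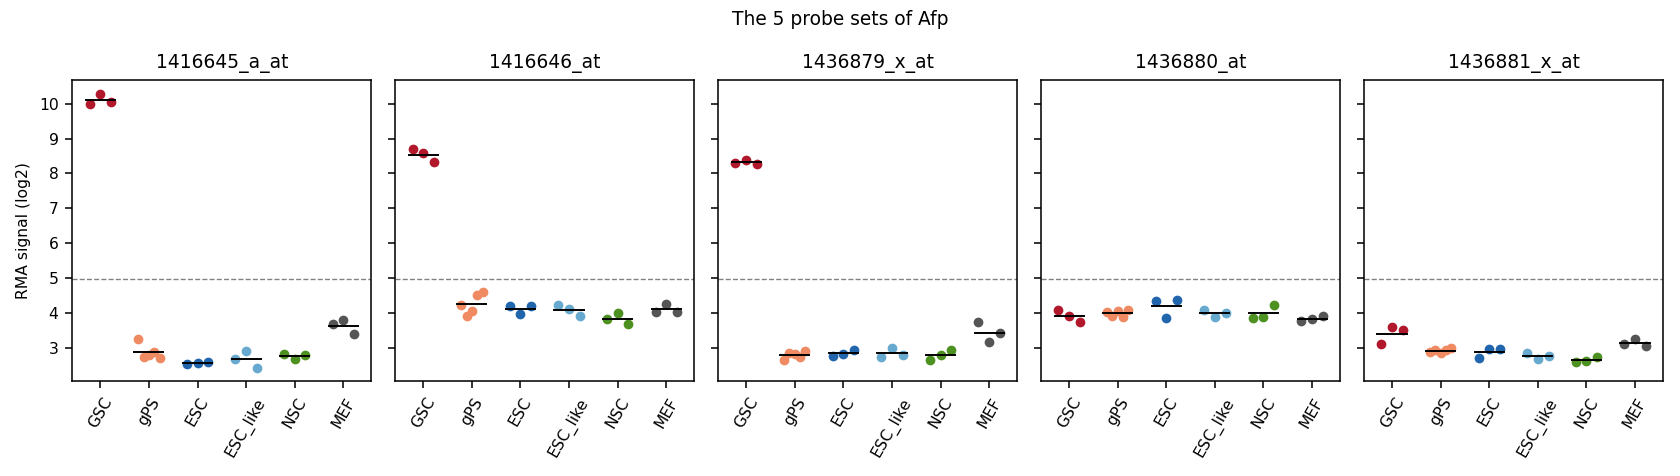
RMA signal (log2) of the 5 probe sets of Afp on 20 arrays by group; points are arrays, black bars are group means and the dashed line is the median of all values. The 3 probe sets on the left separate GSC from all other arrays, by 7.22, 4.44 and 5.39 on average, and 1436880_at and 1436881_x_at stay below the dashed line in all groups.

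The neighbours of Afp and the hepatocyte genes did not share its GSC signal. Afp lies on chromosome 5 between Alb and Afm, its relatives in the albumin family. Alb read 3.58, 3.69 and 3.47 in GSC and 3.19 to 4.01 on the other arrays, and Afm read 5.08 to 5.53 in GSC and 5.10 to 5.86 elsewhere. Of 9 hepatocyte genes, Ttr and Apoa2 were above the overall median in GSC, and Alb, Tat, Cps1, Apoh, Ahsg, Fga and Hpx were not. The GSC means of Ttr and Apoa2, 6.11 and 5.60, were below their gPS means, 6.22 and 7.28. Of 7 measured regulators of Afp, Zbtb20, a zinc finger repressor of Afp in adult liver, fell from GSC to gPS by 1.51 ± 0.19 (adjusted p = 1.11e-06). Its GSC arrays read 7.61, 7.20 and 7.02 and its gPS arrays 5.31 to 6.15. Nr5a2, a nuclear receptor that activates Afp, was lower in GSC than in ESC by 2.03 ± 0.17 (adjusted p = 1.49e-09, limma), a difference of -0.76 when the probe sets of the gene were averaged. Zbtb20 was higher in GSC than in ESC by 1.34 ± 0.22 (adjusted p = 2.22e-05, limma). The other 5 regulators were not called, where 23.3% of all genes were called. Among these 5, the activators Cebpb and Cebpa were above ESC by 0.85 and 0.65 and the repressor Zhx2 was below it by 0.39, so activators and repressors each had members on both sides of ESC. Over the 6 group means, the genes with the pattern most like Afp were Tex101 (Pearson r = 0.9996), Nxf2 (0.9992) and Mov10l1 (0.9989), with r of 0.991 to 0.994 over the 20 arrays. These correlations are a description, since the points share the arrays and 1 group sets them.

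Apoe, the lipoprotein ligand that carries cholesterol between cells, had the widest span of the 9 tested genes, and its only probe set is 1432466_a_at. The ESC arrays read 12.79, 12.65 and 12.67, the gPS arrays 12.52, 12.49, 12.30, 12.37 and 12.55, and the ESC_like arrays 11.78, 11.56 and 11.61. The GSC arrays read 9.53, 9.59 and 9.78, the NSC arrays 9.23, 9.19 and 9.001, and the MEF arrays 7.39, 7.43 and 7.31. No group overlapped with the next in that order, and the order was ESC, gPS, ESC_like, GSC, NSC, MEF. From GSC to gPS, Apoe rose by 2.81 ± 0.10 (7.02-fold, adjusted p = 1.42e-15). Relative to ESC it was lower by 3.07 ± 0.11 in GSC (8.40-fold), by 3.56 ± 0.11 in NSC (11.8-fold) and by 5.33 ± 0.11 in MEF (40.1-fold), all called in limma. It was also lower in ESC_like than in ESC by 1.06 ± 0.11 (2.08-fold, adjusted p = 2.14e-07).

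Between the pluripotent groups the Apoe differences were smaller. The gPS mean was 0.26 ± 0.10 below ESC (95% interval of gPS minus ESC from -0.46 to -0.06, adjusted p = 0.0535) and 0.80 ± 0.10 above ESC_like (adjusted p = 2.94e-06, limma), below 2-fold. The fibroblast share was lowest in ESC, where Apoe was highest, and highest in MEF, where Apoe was lowest. NSC had a lower fibroblast share than GSC and less Apoe, and ESC_like a higher share than GSC and more Apoe. The part of feeder RNA in the Apoe differences was not tested. Macrophages also make Apoe, and the macrophage list had a summed linear signal of 2503 to 2657 in GSC against 383 to 901 in gPS, of which Lyz2 was 77.7% in GSC. Of the 12 macrophage genes, 3 were lower in gPS than in GSC and 9 were not called, where 10.9% of all genes were called lower.

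Apoe lies on chromosome 7 next to Apoc1 and Tomm40. Apoc1, which encodes a small lipoprotein component, read 5.43, 5.54 and 5.17 in GSC, 7.27, 7.46, 8.65, 8.57 and 9.06 in gPS, and 8.04 to 8.26 in ESC. It rose from GSC to gPS by 2.82 ± 0.28 (adjusted p = 2.93e-08), close to the size of the Apoe rise, and was lower in GSC than in ESC by 2.75 ± 0.31. Unlike Apoe, Apoc1 was not lower in ESC_like, where it read 8.17 to 8.46. Tomm40, a pore subunit of mitochondrial import, rose by 1.19 ± 0.23 (adjusted p = 1.93e-04, limma) from GSC to gPS, and by 0.99 with array weights, under the fold limit. Apoc2, the cofactor of lipoprotein lipase in the same cluster, was high in ESC_like alone: it read 7.10, 7.03 and 6.75 there and 3.57 to 4.47 on the other 17 arrays, a difference of 2.96 ± 0.17 from ESC. Of 9 measured neighbours in the Afp, Apoe and Apoa1 clusters, 2 rose and 0 fell from GSC to gPS. Of all genes, 9.10% rose and 10.9% fell. The genes with group means most like those of Apoe were Gnpda1 (r = 0.993), Nampt (0.991) and Nadk2 (0.991), and of Dab2 they were Kcnn4 (0.995), Txndc5 (0.990) and Ehd2 (0.990), each over 6 group means that come from the same arrays.

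Ttr, the thyroid hormone and retinol carrier, and Apoa1, the main protein of high-density lipoprotein, did not separate the groups. Ttr read from 5.67 to 6.50 in 1451580_a_at over all arrays, and 2.37 to 3.48 in its other 3 probe sets. Its ESC_like arrays, at 5.72, 5.74 and 5.67, were below all ESC and gPS arrays, by 0.52 ± 0.15 on average from ESC (adjusted p = 0.0135) and by 0.51 ± 0.13 from gPS (adjusted p = 0.00714, limma), both below 2-fold. Of 6 choroid plexus genes, Kl and Kcnj13 were not above the overall median in any group. Apoa1 read from 5.32 to 6.08 in 1419233_x_at. None of its 7 differences was called, the lowest adjusted p was 0.310, and the 95% intervals lay between -0.55 and 0.54.

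In each of the 7 comparisons, 2 or 0 of the 9 tested genes were called, and the share of all genes is given beside each count. GSC and gPS differ in the conversion to pluripotency and also in culture conditions, and the 2 cannot be told apart here. From GSC to gPS, 20.0% of all genes were called, 9.10% as higher and 10.9% as lower in gPS. Of the 9 genes Apoe rose, Foxa2 fell and 7 were not called. The median difference of the 9 was 0.14, against 0.02 over all genes. Between gPS and ESC, which asks how near the converted cells came to ESC, 4.49% of all genes were called by limma, 2.36% as higher and 2.13% as lower in gPS, and 0 of the 9. At an unadjusted p under 0.05 there were 4 of 9, and Amn and Dab2 had an adjusted p under 0.05. Between GSC and ESC, 23.3% of all genes were called, 13.1% as higher and 10.2% as lower in GSC, with Foxa2 higher and Apoe lower in GSC. Between gPS and ESC_like, 4.85% were called, 1.11% as higher and 3.74% as lower in gPS, and 0 of the 9, with 4 at an unadjusted p under 0.05 in limma.

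Among the comparisons against ESC, 7.21% of all genes were called for ESC_like (5.11% as higher and 2.10% as lower), 23.4% for MEF and 21.4% for NSC. In each of these 3, Dab2 was higher and Apoe lower, and the other 7 genes were not called. The ESC arrays are shared by these comparisons. In the order of group means, the 9 genes have 45 pairs of neighbouring groups. Of these pairs 4 were called: Dab2 in MEF over NSC, Foxa2 in GSC over gPS, and Apoe in ESC_like over GSC and in NSC over MEF. Of all genes, 22.6% were called between ESC_like and GSC and 17.0% between NSC and MEF. Those shares are for fixed pairs of groups, while the neighbouring pairs were set by each gene's own means. The count of 4 among 45 is therefore a description, with no matching share of all genes.

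**Figure D4:**
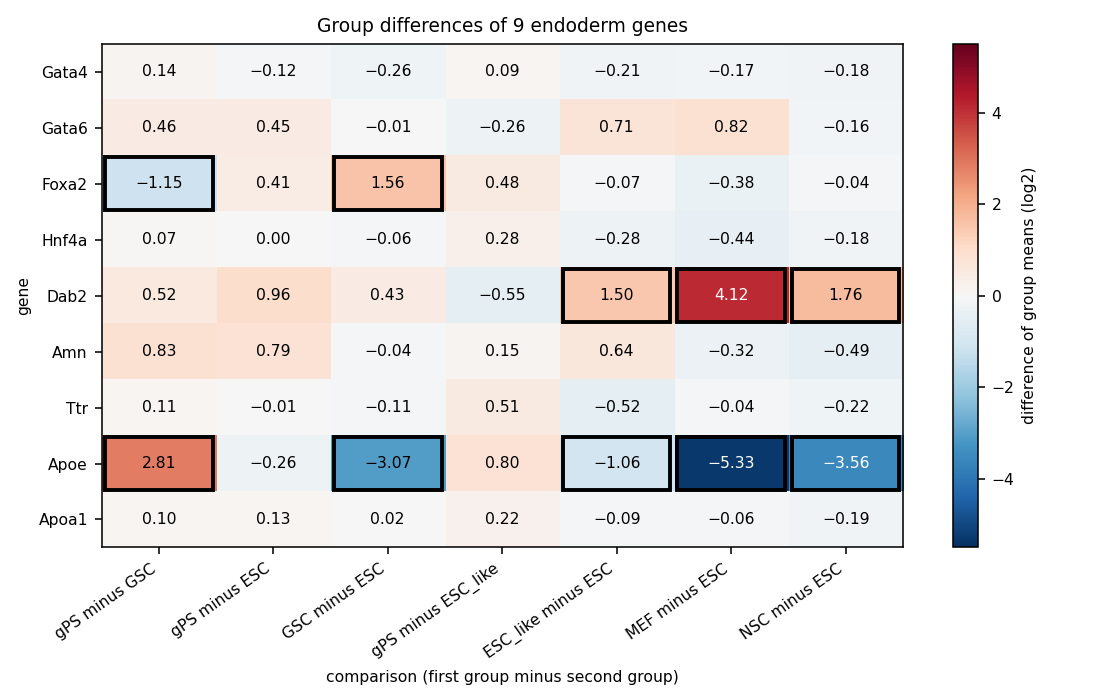
Differences of group means (log2) for the 9 tested genes in 7 comparisons, written as first group minus second group; colour shows size and direction, and a black frame marks a called difference. Apoe holds 5 frames, Dab2 3 and Foxa2 2, and gPS minus ESC and gPS minus ESC_like hold none.

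The wider endoderm programme was read from further lists. Of 12 measured primitive endoderm regulators, 1 rose and 2 fell from GSC to gPS, where 9.10% of all genes rose and 10.9% fell. Pdgfra, the receptor that marks the lineage in the blastocyst and is also abundant in fibroblasts, read 7.32, 7.25 and 7.13 in GSC, 4.66 to 5.27 in gPS and 9.54 to 9.89 in MEF, and fell by 2.37 ± 0.13 from GSC to gPS (adjusted p = 3.86e-12). With the probe sets of the gene averaged this was -0.99. Hhex, a homeobox factor of anterior visceral endoderm and liver, read 8.86, 8.31 and 8.54 in GSC and 6.01 to 6.75 in gPS, a fall of 2.10 ± 0.14 (adjusted p = 3.83e-11). Fgfr2, an FGF receptor, rose by 1.52 ± 0.18 (adjusted p = 2.86e-07, limma), and by 0.05 when probe sets shared between transcripts were left out. The lineage factors Sox17 and Sox7 read 5.17 to 5.67 and 3.93 to 4.14 in gPS and 5.10 to 5.31 and 4.17 to 4.27 in ESC. Between gPS and ESC, 0 of the 12 were called by limma (4.49% of all genes), with 4 at an unadjusted p under 0.05. In ESC_like against ESC it was also 0 (7.21% of all genes), with 6 at that p.

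Of 16 measured visceral endoderm genes of transport and secretion, 4 rose and 3 fell from GSC to gPS (9.10% and 10.9% of all genes). Cldn6, a tight junction protein of early epithelia, rose by 3.45 ± 0.34 and Spink1, a trypsin inhibitor, by 2.76 ± 0.22. Lrp2, which encodes megalin, rose by 2.14 ± 0.26, from 3.49 to 3.96 in GSC to 5.14 to 7.01 in gPS. Rbp4, the retinol carrier that travels with transthyretin, fell by 3.11 ± 0.14, from 7.54 to 7.75 in GSC to 4.21 to 4.88 in gPS (adjusted p = 1.22e-13, limma). Over the tested genes, the primitive endoderm regulators and this list, GSC exceeded gPS in Foxa2, Hhex, Pdgfra, Rbp4, Mttp and Lgmn by called differences. By called differences, gPS exceeded GSC in Apoe, Fgfr2, Lrp2, Cldn6, Spink1 and Apoa2. Afp was also higher in GSC, the pattern it was chosen for. The differences of Foxa2, Pdgfra and Fgfr2 carry the limits given above.

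Between gPS and ESC, 2 of these 16 genes were higher and 1 was lower in gPS (2.36% and 2.13% of all genes). Apoa2, a component of high-density lipoprotein, read 7.81, 6.69, 7.25, 7.64 and 7.04 in gPS and 5.11, 4.79 and 5.30 in ESC, and all other arrays lay between 4.67 and 5.74. Every gPS array was above every other array, and the difference from ESC was 2.22 ± 0.19 (adjusted p = 5.28e-08). Cldn6 was also higher in gPS than in ESC, by 1.55 ± 0.34 (adjusted p = 0.0017), and Spink1 was lower by 2.33 ± 0.22 (adjusted p = 1.78e-07, limma), with ESC at 8.84 to 9.04 and gPS at 6.01 to 7.27. Apoa2 thus separated gPS from ESC more widely than any of the 9 tested genes did.

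Within gPS the readings of uptake genes differed by array. In the probe sets that represent the genes, gPS 1 had the highest of the 5 readings for Gata6, Amn, Dab2 and Apoa1, 4 of the 9 genes. It was highest for 10 of the 16 transport and secretion genes, or 62.5%, against 26.8% of all genes. Among those 10, Apob, Rbp4, Fgb, Slc2a2 and Tspan8 had gPS means below the overall median. Other probe sets were mixed: gPS 1 was highest in 1430604_a_at of Dab2 and 1425463_at of Gata6. It was not highest in 1423805_at and 1429693_at of Dab2, 1443081_at of Gata6 or the other probe sets of Apoa1. Lrp2 read 7.01 in gPS 1 and 5.14 to 5.82 in the others, and Cubn, which encodes cubilin and is named here after its values were seen, read 6.94 in gPS 1 and 4.25 to 4.86 in the others. Without gPS 1, Lrp2 still rose from GSC to gPS, by 1.84, and Cubn was lower in gPS than in GSC by a called difference of -1.10, against -0.63 (adjusted p = 0.183 in limma) with it. The epiblast and anterior endoderm factor Otx2 went the other way, at 4.99 in gPS 1 and 6.41 to 7.03 in the other gPS arrays. Among 12 primitive endoderm regulators gPS 1 was highest for 2, Foxa1 and Eomes. This is a description of 1 array, with no test.

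**Figure D5:**
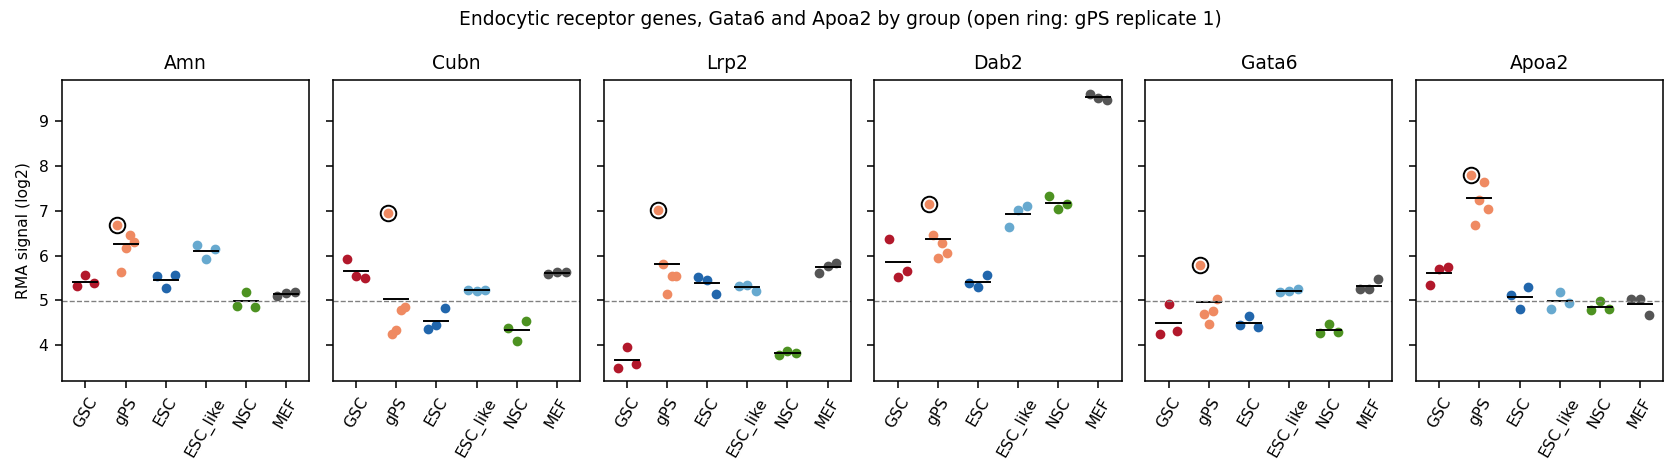
RMA signal (log2) of the cubilin and megalin uptake genes Amn, Cubn, Lrp2 and Dab2, and of Gata6 and Apoa2, on 20 arrays by group; points are arrays, black bars are group means, the dashed line is the median of all values and open rings mark gPS 1. The panels hold genes for which the ringed array was the highest of the 5 gPS arrays, at 6.94 for Cubn and 7.01 for Lrp2. That array was highest for 4 of the 9 tested genes, 10 of 16 transport and secretion genes and 2 of 12 primitive endoderm regulators. Apoa2 is higher in all gPS arrays than in any other.

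Of 12 parietal endoderm and basement membrane genes, 4 rose and 1 fell from GSC to gPS (9.10% and 10.9% of all genes). Against ESC, 3 were higher and 0 lower in gPS (2.36% and 2.13% of all genes). In ESC_like against ESC, 8 were higher and 1 lower, where 5.11% of all genes were called higher and 2.10% lower. Serpinh1, the collagen chaperone, read 5.28 to 5.84 in ESC, 8.32 to 8.93 in gPS, 9.94 to 10.25 in ESC_like and 12.08 to 12.24 in MEF, and was higher than ESC by 3.09 ± 0.14 in gPS and by 4.55 ± 0.16 in ESC_like (adjusted p = 3.90e-12 and 3.43e-14, limma). Of the fibroblast list, 8 of 11 were higher in gPS and 9 of 11 in ESC_like than in ESC, while from GSC to gPS 1 rose and 1 fell, and the part of feeder RNA was not tested.

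Of 6 anterior visceral endoderm genes, 3 rose from GSC to gPS, where 9.10% of all genes rose. Lefty1 rose by 4.37 ± 0.19, Otx2 by 3.04 ± 0.28 and Hesx1 by 1.53 ± 0.22. Lefty1 and Otx2, a Nodal inhibitor and a homeobox factor, are also expressed in pluripotent cells, and 10 of the 10 pluripotency genes rose in the same comparison. Between gPS and ESC, Otx2 was lower in gPS by 1.68 ± 0.28 (adjusted p = 1.54e-04, limma). The other 5 were not called, where 2.13% of all genes were called lower. Of 8 further GATA factors and cofactors, Tbx3, a T-box factor, rose from GSC to gPS by 1.69 ± 0.26 and the other 7 were not called.

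The receptor and efflux genes that handle Apoe particles also differed. Of 10 measured, 4 rose and 2 fell from GSC to gPS, against 9.10% and 10.9% of all genes. Abca1, the transporter that loads cholesterol onto apolipoproteins, fell by 3.02 ± 0.12 (adjusted p = 1.89e-14), from 10.49 to 10.86 in GSC to 7.22 to 7.88 in gPS, and was also lower in gPS than in ESC by 1.40 ± 0.12. Vldlr, a receptor for Apoe-rich particles, rose by 2.39 ± 0.19 (adjusted p = 7.04e-10, limma), and by 0.95 with the probe sets of the gene averaged and 0.43 without shared probe sets. Abca1 and Apoe were thus opposite in GSC and gPS, with Abca1 higher in GSC and Apoe higher in gPS.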

How the data were processed

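RNA of 20 mouse cell samples was labelled with a One-Cycle kit and hybridised to Affymetrix arrays, per the labels' protocols. The values the authors deposited are log2 intensities, 1 per probe set and array, computed by RMA, a method that corrects background, normalizes quantiles and summarises probes. This comes from the submitters' processing notes (no version is given). The sources used here do not say if RMA was run once on all 20 arrays. The values were used as deposited.

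Of 45101 probe sets, 64 controls were left out, and 34945 of the rest had 1 gene symbol in the platform table, 932 several and 9160 none. Each of 18193 genes was represented by its probe set of highest mean over all arrays. Group means were fitted by limma 3.58.1 under R 4.3.3 (functions lmFit and eBayes, 6 groups, no covariate), with Benjamini-Hochberg adjustment over all genes of each of 7 comparisons, 95% intervals, and a call at an adjusted p under 0.05 and at least 2-fold. The fit was tested on simulated data. The 3 to 5 arrays per group limit the precision. Probe sets that can match several transcripts carry the suffixes _a, _s or _x.

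The members and lists were chosen with earlier results of these data known. Genes outside the 10 were named by a rule: per list and comparison up to 4 called genes with the largest differences and up to 2 others with the smallest, list genes at the top of a summed level or not above the overall median, and the 3 genes most like each member with a group mean above 7. Lists had up to 3 genes not measured here. Shares of MEF level were taken on the linear scale. Upstream sequences and gene order came from RefSeq tables for GRCm38.p6. Alternatives were another quantile normalization, median centring, averaging probe sets, leaving out shared probe sets, array weights, a variance trend, other thresholds, a replicate block and leaving out arrays.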

Additional observations from a re-analysis of the deposited data

Results flagged for a closer look

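The 29 probe sets of the endoderm genes and the genes of the pathway lists, 104 in all, were searched for a gPS array far from the other 4. None of the endoderm genes had one, and 3 list genes did, where chance gives about 1 in 20. Cubn read 6.94 in gPS 1, with the others at 4.25 to 4.86. Gata1 read 5.16 in gPS 4, with the others at 4.54 to 4.63. Zhx2 read 4.42 in gPS 4, with the others at 4.78 to 4.90.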

How the results depend on the processing

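Of 2159 values of member differences under 35 other settings, 2135 kept their side of the threshold, 16 passed it and 8 fell short. None of the called ones changed sign, while 46 values that were not called did. The count of called members from GSC to gPS, 2 as reported, was 1 with array weights, which took Foxa2 below 2-fold, 1 without shared probe sets, 4 with no minimum fold, 1 to 2 when leaving out 1 array at a time, and 1 without gPS 1 and 2, a setting chosen after seeing the data. For gPS against ESC, 0 as reported, it was 2 with no minimum fold and 0 to 1 when leaving out 1 array. The replicate numbers did not pair the arrays (45 same-numbered pairs, r from -0.17 to 0.27, 7 over 0.1), and the fit with the replicate block called 1 member for gPS against ESC, Dab2 at 1.09. For gPS against ESC_like, 0 as reported, no minimum fold gave 2. For ESC_like against ESC, 2 as reported, it was 1 with probe sets averaged (Dab2 0.64), 0 without shared probe sets (Dab2 0.15, and Apoe, Apoa1 and Ttr not measured) and 5 with no minimum fold. For NSC against ESC, 2 as reported, these were 1 (Dab2 0.81), 0 and 3, and for MEF against ESC, 2 as reported, 1 without shared probe sets and 4 with no minimum fold. GSC against ESC, 2 as reported, had 1 without shared probe sets. The 4 called neighbouring pairs became 1 of 30 without shared probe sets, 8 with no minimum fold, and 3 to 4 when leaving out 1 array. In every count without shared probe sets, Apoe, Apoa1 and Ttr were not measured. Only 6 genes remained, so the Apoe calls could not be made in that setting. Over all genes, no minimum fold called 9253 from GSC to gPS against 3647, 4555 for gPS against ESC against 817, 9143 for GSC against ESC against 4241, 5339 for gPS against ESC_like against 882, 5131 for ESC_like against ESC against 1312, 8835 for MEF against 4252 and 8615 for NSC against 3898. With 45037 probe sets in place of genes these were 6847, 1680, 8203, 1868, 2636, 8334 and 7552. Of 17490 alternative values of list genes, 162 passed the threshold and 83 fell short. Low signals near the median, such as Gata4 and Gata6, limit what these arrays can show.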
